A study of Mus musculus with 12 samples.

Results

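The genes described here are the RANKL axis and a set of osteoclast effector genes: Tnfsf11, Tnfrsf11b, Tnfrsf11a, Nfatc1, Acp5, Ctsk, Atp6v0d2, Dcstamp, Ocstamp and Calcr. They were chosen by symbol, as 10 of the 55487 genes in the count tables, and all 10 were found there. RNA-seq was performed on poly(A) RNA from C57BL/6 mice labelled as 8 weeks old, in 12 libraries. The first experiment compared bone marrow-derived macrophages (BMMs) from ovariectomized (OVX) mice, which have lost ovarian estrogen, with those from sham-operated mice, in 3 libraries each. BMMs had been grown from leg bone marrow with macrophage colony-stimulating factor, and the methods name no RANKL in this medium. The second experiment used cells labelled as mesenchymal stem cells (MSCs), adherent marrow cells purified by passage, in 2 libraries of each of 3 groups. These were MSCs alone (MSC), MSCs kept with RAW264.7 cells, a mouse macrophage-like line (MSC+RAW-TW), and MSCs kept with RAW264.7 cells stimulated with lipopolysaccharide (MSC+RAW-LPS-TW). The labels call the last 2 groups co-cultures. The methods name a Transwell membrane (TW) for such groups in other assays, and their RNA-seq section does not mention it.

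RANKL, encoded by Tnfsf11, is a cytokine that stromal cells, osteoblast-lineage cells and lymphocytes display or release. It binds RANK, encoded by Tnfrsf11a, on macrophage-lineage precursors, and osteoprotegerin (OPG), encoded by Tnfrsf11b, is a soluble decoy receptor that takes RANKL away from RANK. RANK signalling through NF-κB, AP-1 and calcium raises NFATc1, the transcription factor that switches on the genes for cell fusion, acid secretion and matrix digestion in the osteoclast, the cell that resorbs bone.

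Total counts ran from 17012923 to 45367105 per library. Sham replicates 2 and 3 stood closer together than other libraries of one group, as did both MSC+RAW-TW libraries. The chi-square between their counts, relative to sampling alone, had a median of 2.48 and 3.11 at low counts and 2.81 and 3.26 at high counts. Between other libraries of one group it reached 3.84 to 6.99 at low counts and 18.51 to 120.59 at high counts. Each near-identical pair was therefore summed and counted as 1 sample, which leaves n = 3 for OVX, n = 2 for sham, MSC and MSC+RAW-LPS-TW, and n = 1 for MSC+RAW-TW. The labels do not say whether libraries came from separate animals or cultures, so p-values measure only the spread between libraries. The label MSC was checked against markers, and they did not bear it out as a purely stromal culture. Below, MSC is the name of the label only. All 10 macrophage markers and all 12 stromal markers had counts in every group, and the macrophage markers summed to between 26080 and 26300 CPM in the MSC libraries against 2923 to 3095 CPM for the stromal markers. Lyz2, the lysozyme gene, made up most of the macrophage sum, with 21600 to 21690 CPM in those MSC libraries. In the BMM libraries the stromal markers summed to between 7531 and 8392 CPM, more than in the MSC libraries. In bulk RNA, fewer cells of a type and less RNA per cell cannot be told apart.

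Promoter sequences are shown for Tnfsf11 and Acp5, the members that rose in MSC+RAW-LPS-TW. RefSeq promoters on GRCm38.p6 were given for 5 of the 10 members, each running from 250 bases before to 50 bases after the start site. The Tnfsf11 promoter lies at chr14:78307994-78308293 on the minus strand. The 3 Acp5 start sites have windows at chr9:22135697-22135996, chr9:22131816-22132115 and chr9:22130549-22130848, all on the minus strand. Capitals mark matches, on either strand, to the NFAT core GGAAA or to a TATA box TATAAA, and no match overlapped another.
Tnfsf11: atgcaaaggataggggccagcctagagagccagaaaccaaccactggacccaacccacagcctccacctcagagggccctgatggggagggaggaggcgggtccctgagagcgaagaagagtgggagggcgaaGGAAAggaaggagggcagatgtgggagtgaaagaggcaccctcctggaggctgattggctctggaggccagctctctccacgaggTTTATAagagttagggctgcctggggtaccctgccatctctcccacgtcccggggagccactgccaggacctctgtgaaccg
Acp5 start 1: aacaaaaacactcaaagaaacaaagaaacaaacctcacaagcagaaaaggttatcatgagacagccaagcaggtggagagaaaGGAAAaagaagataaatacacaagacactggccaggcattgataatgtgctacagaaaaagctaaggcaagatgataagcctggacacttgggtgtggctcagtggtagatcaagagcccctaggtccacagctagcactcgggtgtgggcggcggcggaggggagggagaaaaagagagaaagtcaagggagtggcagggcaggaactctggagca
Acp5 start 2: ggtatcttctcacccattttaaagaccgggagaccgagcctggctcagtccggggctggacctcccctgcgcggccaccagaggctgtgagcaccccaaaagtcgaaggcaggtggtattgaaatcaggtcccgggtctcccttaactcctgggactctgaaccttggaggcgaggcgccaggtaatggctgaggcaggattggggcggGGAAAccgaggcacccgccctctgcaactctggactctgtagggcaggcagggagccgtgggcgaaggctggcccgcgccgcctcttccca
Acp5 start 3: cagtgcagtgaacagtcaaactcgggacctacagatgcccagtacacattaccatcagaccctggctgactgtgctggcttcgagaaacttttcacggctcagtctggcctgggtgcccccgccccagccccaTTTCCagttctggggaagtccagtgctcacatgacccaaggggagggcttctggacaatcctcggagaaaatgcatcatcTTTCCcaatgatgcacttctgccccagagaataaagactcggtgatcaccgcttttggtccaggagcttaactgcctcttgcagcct

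The Tnfsf11 window held 1 TATA match, on the opposite strand, which begins 32 bases before the start site, and 1 NFAT core match, which begins 117 bases before it. The Acp5 windows held 1, 1 and 2 NFAT core matches. Matches to GGAAA were found in 61.3% of all 32851 promoters of this length and matches to TATAAA in 13.6%. Searches on both strands for an AP-1 site, TGANTCA, and a PU.1 core, GAGGAA, found no match in these 4 windows, and such matches were present in 7.81% and 28.3% of all promoters. The Ctsk window, not printed, held 2 PU.1 core matches and 1 NFAT core match, and the Tnfrsf11a window held none of the 4 motifs. The matches are descriptions of letters and were not tested as binding sites.

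In BMMs, the decoy receptor gene Tnfrsf11b was higher in OVX than in sham, while Acp5 and Ocstamp were lower. Levels are given as CPM, counts scaled to the library size after TMM normalization, and a gene was called when its fold was 2 or more and its adjusted p was 0.05 or less in edgeR's quasi-likelihood test, with Benjamini-Hochberg adjustment over all genes tested. Of the 10 members, 9 passed the filter on low counts and were tested, 1 was called higher and 2 were called lower. Of all 16768 genes tested, 8.46% were called, 5.39% as higher and 3.08% as lower. All 9 members tested had OVX and sham values that did not overlap, as did 47.3% of all genes tested. The calls over all genes were 903 higher and 516 lower, and 220 higher and 370 lower once trends on GC content and gene length were removed from each library.

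**Figure D1:**
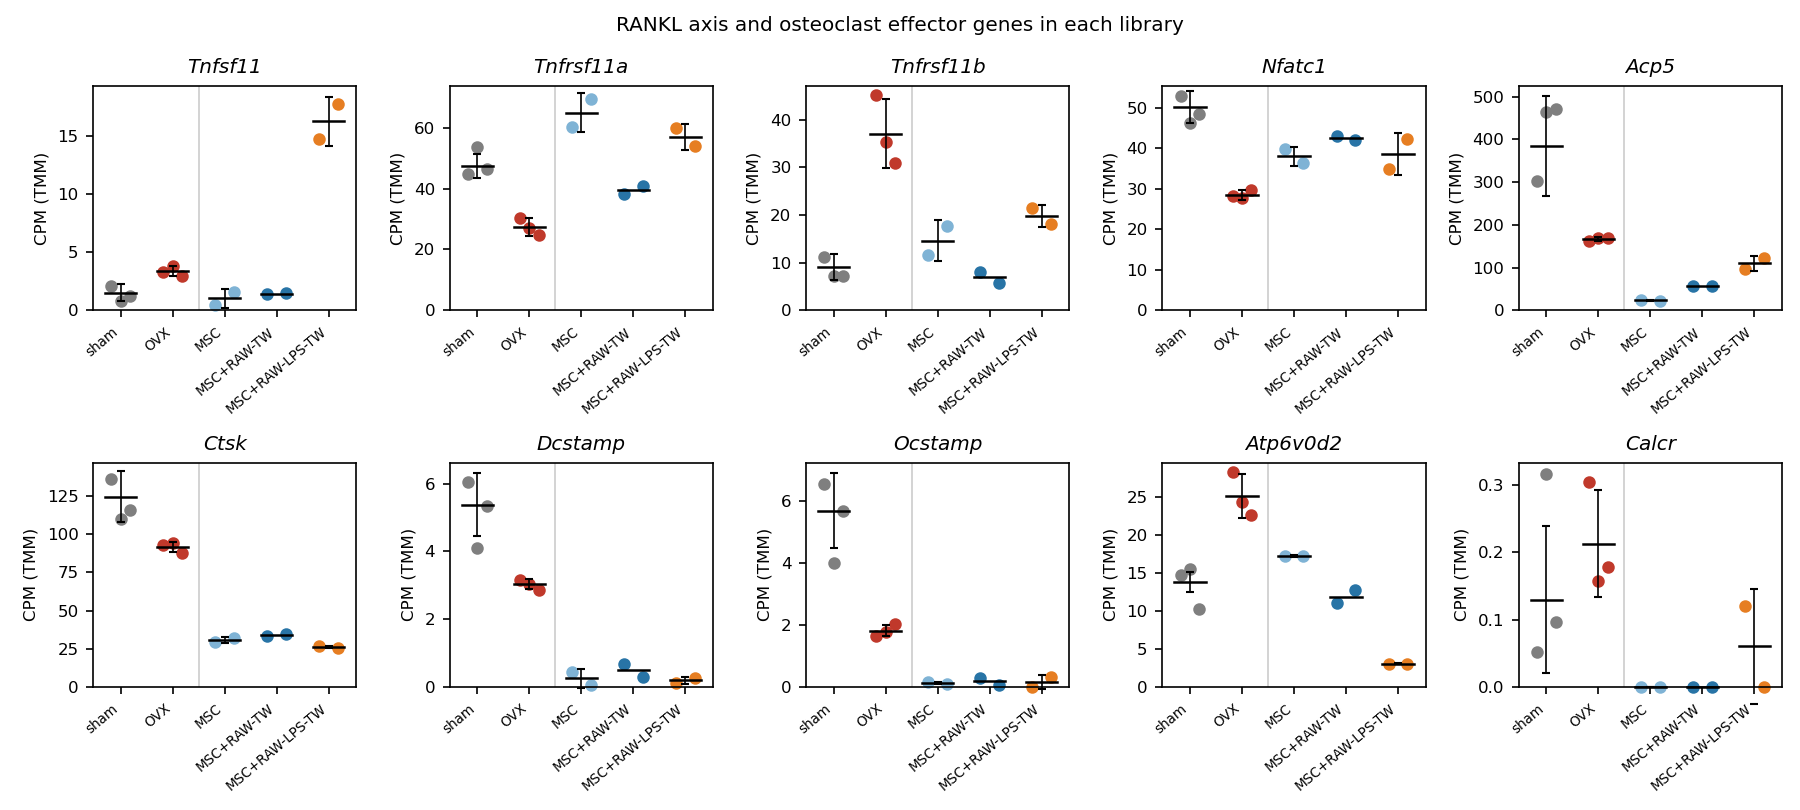
Expression of the 10 members in each library, in CPM after TMM normalization (y axes, linear from 0, a scale for each gene), by group (x axis). Points are libraries, black lines are group means and error bars are the SD, with sham replicates 2 and 3 and both MSC+RAW-TW libraries each averaged as 1 sample. Tnfrsf11b lay above 30 CPM in each OVX library and at or below 11.1 CPM in each sham library, and Tnfsf11 lay at 14.8 and 17.8 CPM in MSC+RAW-LPS-TW and below 2 CPM in the other MSC libraries.

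Tnfrsf11b (ENSMUSG00000063727, chromosome 15, 54250619 to 54278484, GRCm38) was measured at 45.1, 35.3 and 30.9 CPM in OVX replicates 1 to 3. In sham replicates 1 to 3 it was measured at 11.1, 7.15 and 7.27 CPM. The OVX values all lay above the sham values, with means of 37.1 ± 7.28 CPM (SD, n = 3) and 9.15 ± 2.74 CPM (SD, n = 2). The log2 fold change was 2.01 (SE 0.27), a fold of 4.02, with an adjusted p of 0.00668 in edgeR. Over 14 alternative settings the log2 fold change stayed between 1.51 and 2.35, and the gene was called in each. The 1.51 was found with the GC content and length trends removed. The sum of 8 osteoblast markers was between 2762 and 4869 CPM in OVX and between 1199 and 2406 CPM in sham. Nearly all of it was Spp1, the osteopontin gene, which macrophages also express, with 2716 to 4827 CPM in OVX and 1174 to 2378 CPM in sham (log2 fold change 1.05, adjusted p 0.0799 in edgeR). Of 7 osteoblast markers tested, 1 rose, the low-count Ibsp (2.57), and none fell. The part of these markers in the Tnfrsf11b result was not tested.

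The ligand gene Tnfsf11 (ENSMUSG00000022015, chromosome 14, 78277445 to 78308043) was low in BMMs. It was measured at 3.32, 3.82 and 2.96 CPM in OVX, from 109, 146 and 100 counts. It was measured at 2.06, 0.759 and 1.21 CPM in sham, from 79, 12 and 25 counts. The OVX values lay above the sham values, with means of 3.37 ± 0.43 CPM (SD, n = 3) and 1.52 ± 0.757 CPM (SD, n = 2). The log2 fold change of 1.12 (SE 0.37) did not pass the test, with an adjusted p of 0.0854 in edgeR. This side of the threshold depended on the processing. The adjusted p ranged from 0.0156 to 0.24 over 14 alternatives, and it passed in DESeq2 (0.0371), with no filter (0.035) and with all libraries kept (0.0334). It also passed without sham replicate 1, with a log2 fold change of 1.72. T cells are another source of RANKL, and the 7 T cell markers summed to between 7.68 and 11.5 CPM in OVX and between 9.71 and 11.3 CPM in sham.

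The genes of 2 cytokines that raise RANKL in stromal cells had lower levels in OVX. Il1b, the gene of interleukin-1β, was measured at 30.6 ± 1.07 CPM (SD, n = 3) in OVX and 43.7 ± 2.03 CPM (SD, n = 2) in sham. Its log2 fold change of -0.53 (SE 0.17) had an adjusted p of 0.0724 in edgeR. Tnf, the gene of tumor necrosis factor, fell, from 243 ± 70.2 CPM (SD, n = 2) in sham to 107 ± 6.71 CPM (SD, n = 3) in OVX, with a log2 fold change of -1.19 (SE 0.21) and an adjusted p of 0.013. This call was lost without OVX replicate 1, without OVX replicate 2, and with the GC content and length trends removed (log2 fold change -0.97).

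The ratio of ligand to decoy receptor transcripts, from counts per kilobase of exon in the same library, was lower in OVX on average. On the log2 scale it was -3.43, -2.87 and -3.05 in OVX and -2.1, -2.9 and -2.25 in sham replicates 1 to 3. Sham replicate 2, which held 12 Tnfsf11 counts, lay within the OVX range, and the mean of sham replicates 2 and 3 lay above it. The means were -3.12 ± 0.28 (SD, n = 3) and -2.32 ± 0.31 (SD, n = 2), a difference of -0.8. The two-sided exact permutation test gave p = 0.1, which is the smallest p that 3 against 2 samples allow.

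The receptor gene Tnfrsf11a (ENSMUSG00000026321, chromosome 1, 105780718 to 105847981) was measured at 30.4, 27.2 and 24.7 CPM in OVX and at 44.7, 53.7 and 46.5 CPM in sham. All OVX values lay below all sham values. The log2 fold change of -0.79 (SE 0.18) had an adjusted p of 0.0268 in edgeR and did not reach a fold of 2. Nfatc1 (ENSMUSG00000033016), the master transcription factor downstream of RANK, showed a similar difference. It was measured at 28.1, 27.6 and 29.8 CPM in OVX and at 52.9, 46.3 and 48.4 CPM in sham, without overlap. Its log2 fold change was -0.83 (SE 0.17), with an adjusted p of 0.0191 in edgeR, short of a fold of 2. With the GC content and length trends removed, Nfatc1 stood at -0.55 with an adjusted p of 0.0809, and Tnfrsf11a at -0.88 with 0.0171. Leaving out any 1 OVX library took both adjusted p above 0.05, to at most 0.129 for Tnfrsf11a and 0.11 for Nfatc1, both without OVX replicate 2. Both genes are also transcribed in macrophages that do not become osteoclasts, and the sum of 10 macrophage markers was between 39380 and 44170 CPM in OVX against 52710 to 57070 CPM in sham. Most of that sum was Lyz2, with 36080 to 40430 CPM in OVX and 48310 to 51550 CPM in sham. The 10 markers did not move together: Adgre1 (log2 fold change -1.19) and Fcgr1 (-1.12) fell, Mrc1 rose (2), and 7, Lyz2 among them (-0.42), were not called. The part of these markers in the results was not tested.

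Among genes of the resorbing cell, Acp5 (ENSMUSG00000001348, chromosome 9, 22126727 to 22135711), which encodes tartrate-resistant acid phosphatase, was measured at 162, 169 and 168 CPM in OVX. In sham it was measured at 302, 463 and 471 CPM. The OVX values were close together and all below the sham values, with means of 167 ± 4.08 CPM (SD, n = 3) and 385 ± 117 CPM (SD, n = 2). The log2 fold change was -1.22 (SE 0.21), with an adjusted p of 0.0123 in edgeR. The call was lost without OVX replicate 1 (log2 fold change -1.20, adjusted p 0.0566) and without OVX replicate 2 (-1.22, 0.0728), where the adjusted p alone was missed, in a range of 3.11e-06 to 0.0728 over 14 alternatives. With the GC content and length trends removed the fold alone was missed, at -0.81 with an adjusted p of 0.0402. Exons of Acp5 overlap those of 6530413G14Rik on the other strand, and since the strand setting of the counting is not stated, reads of the 2 genes may not be told apart.

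Ctsk (ENSMUSG00000028111, chromosome 3, 95499256 to 95509362), the gene of cathepsin K, the collagen-digesting protease of osteoclasts, was measured at 93.2, 94.1 and 87.7 CPM in OVX and at 136, 110 and 116 CPM in sham. The groups did not overlap, but the log2 fold change of -0.45 (SE 0.18) did not pass the test, with an adjusted p of 0.126 in edgeR. Atp6v0d2 (ENSMUSG00000028238, chromosome 4, 19876841 to 19922605), which encodes a proton pump subunit that also takes part in fusion, went the other way. It was measured at 28.3, 24.3 and 22.7 CPM in OVX and at 14.8, 15.6 and 10.3 CPM in sham. Its log2 fold change of 0.86 (SE 0.2), with an adjusted p of 0.0301 in edgeR, was short of a fold of 2, and it was 0.24 with the GC content and length trends removed. Atp6v0d2 had the lowest GC content of the 10 members, 41.6%, and Acp5 the highest, 55.9%.

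Of the fusion genes, which were low, Ocstamp was called and Dcstamp was not. Ocstamp (ENSMUSG00000027670, chromosome 2, 165393760 to 165400405), a membrane protein needed for precursor fusion, was measured at 1.65, 1.78 and 2.01 CPM in OVX and at 6.53, 3.99 and 5.67 CPM in sham. It fell with a log2 fold change of -1.67 (SE 0.28) and an adjusted p of 0.00996 in edgeR. The call was lost only without OVX replicate 2, where the log2 fold change was -1.65 and the adjusted p alone was missed (0.0652, the highest over 14 alternatives, with 8.79e-06 the lowest). Dcstamp (ENSMUSG00000022303, chromosome 15, 39745930 to 39760938), its partner in fusion, was measured at 3.17, 3.03 and 2.87 CPM in OVX and at 6.04, 4.11 and 5.33 CPM in sham. The groups did not overlap, and the log2 fold change of -0.85 (SE 0.25) did not pass, with an adjusted p of 0.0616 in edgeR. Calcr (ENSMUSG00000023964, chromosome 6, 3685680 to 3764714), the calcitonin receptor of mature osteoclasts, held 6 to 10 counts in OVX libraries and 2 to 5 in sham libraries and was not tested.

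**Figure D2:**
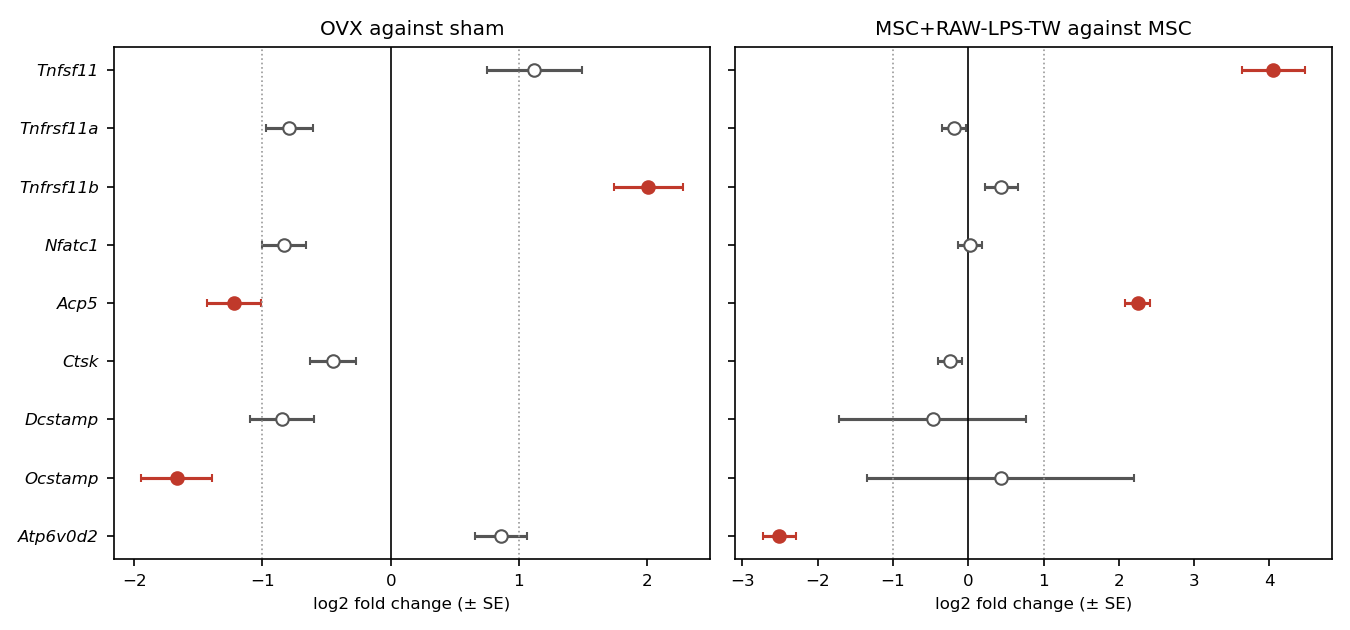
Log2 fold changes with their SE (x axes) of the 9 members tested (y axis) in OVX against sham (left) and in MSC+RAW-LPS-TW against MSC (right), from edgeR. Filled red points were called, open grey points were not, and dotted lines mark a fold of 2. Acp5 was called lower in OVX and higher in MSC+RAW-LPS-TW, and Tnfsf11 had the largest rise in MSC+RAW-LPS-TW, 4.05.

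Genes around the members were taken as 119 genes in 10 lists of the osteoclast pathway. In OVX against sham, 118 were tested, 3 were called higher and 11 lower, together 11.9% against 8.46% of all genes. In RANK signalling, 1 of 23 genes rose, the kinase gene Mapk8 (log2 fold change 1.19), and 2 fell, the NF-κB subunit genes Nfkb2 (-1.15) and Relb (-1.07). In costimulation through ITAM adaptors, 3 of 14 fell. These were Oscar (-1.65), an osteoclast-associated receptor, Syk (-1.27), the kinase that reads phosphorylated ITAMs, and Fcer1g (-1.01), an ITAM adaptor. Spi1, which encodes PU.1, was the 1 of 10 transcription factors that fell, from 689 ± 134 CPM (SD, n = 2) in sham to 252 ± 36.0 CPM (SD, n = 3) in OVX (log2 fold change -1.46, SE 0.21, adjusted p 0.00771 in edgeR).

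Acid secretion genes had a median log2 fold change of -0.61 over 18 tested, against -0.01 for all genes, and 2 of them fell, Plekhm1 (-1.44), a lysosome positioning gene, and the proton pump subunit gene Atp6v0d1 (-1.03). Of 7 matrix degradation genes, the gelatinase gene Mmp9 fell, from 176 ± 9.08 CPM (SD, n = 2) in sham to 54 ± 2.46 CPM (SD, n = 3) in OVX. Its log2 fold change was -1.72 (SE 0.17), with an adjusted p of 0.00301 in edgeR. Of 19 inducers of Tnfsf11 and their receptors, Ptgs2, the inducible prostaglandin synthase gene, rose (1.32), and Tnf and its receptor gene Tnfrsf1b (-1.15) fell. Lgr4, a further receptor for RANKL, rose (1.03) among 5 other partners. None of the 3 genes of the M-CSF axis, 10 repressors or 9 fusion and adhesion genes tested was called. With the GC content and length trends removed, 6 of the 118 genes were called, where 3.52% of all genes were, and 4 of the 14 kept their calls: Oscar, Spi1, Plekhm1 and Mmp9. Of those that lost it, Syk (-0.99, adjusted p 0.0105), Tnf (-0.97, 0.0283), Tnfrsf1b (-0.85, 0.0151) and Nfkb2 (-0.71, 0.0456) missed the fold of 2 alone. The others missed both limits, with Mapk8 at 0.36, Ptgs2 at 0.56, Relb at -0.66, Atp6v0d1 at -0.74, Fcer1g at -0.81 and Lgr4 at 0.82. Without OVX replicate 2, 5 genes were called, where 1.9% of all genes were, and without OVX replicate 1, 7, where 4.13% were. Leaving out each of 6 libraries in turn kept the call of Lgr4 in 1 fit (log2 fold changes from 0.82 to 1.25), that of Fcer1g in 1 (from -1.10 to -0.60), those of Oscar (from -1.74 to -1.25) and Atp6v0d1 (from -1.31 to -0.93) in 3, and that of Relb (from -1.31 to -0.89) in 4. The calls of Mapk8 (from 1.03 to 1.69) and Tnf (from -1.45 to -1.14) were kept in 4, and those of Syk (from -1.39 to -1.14) and Tnfrsf1b (from -1.19 to -1.12) in 5, each with a fold past 2 throughout, so that the adjusted p alone was missed.

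**Figure D3:**
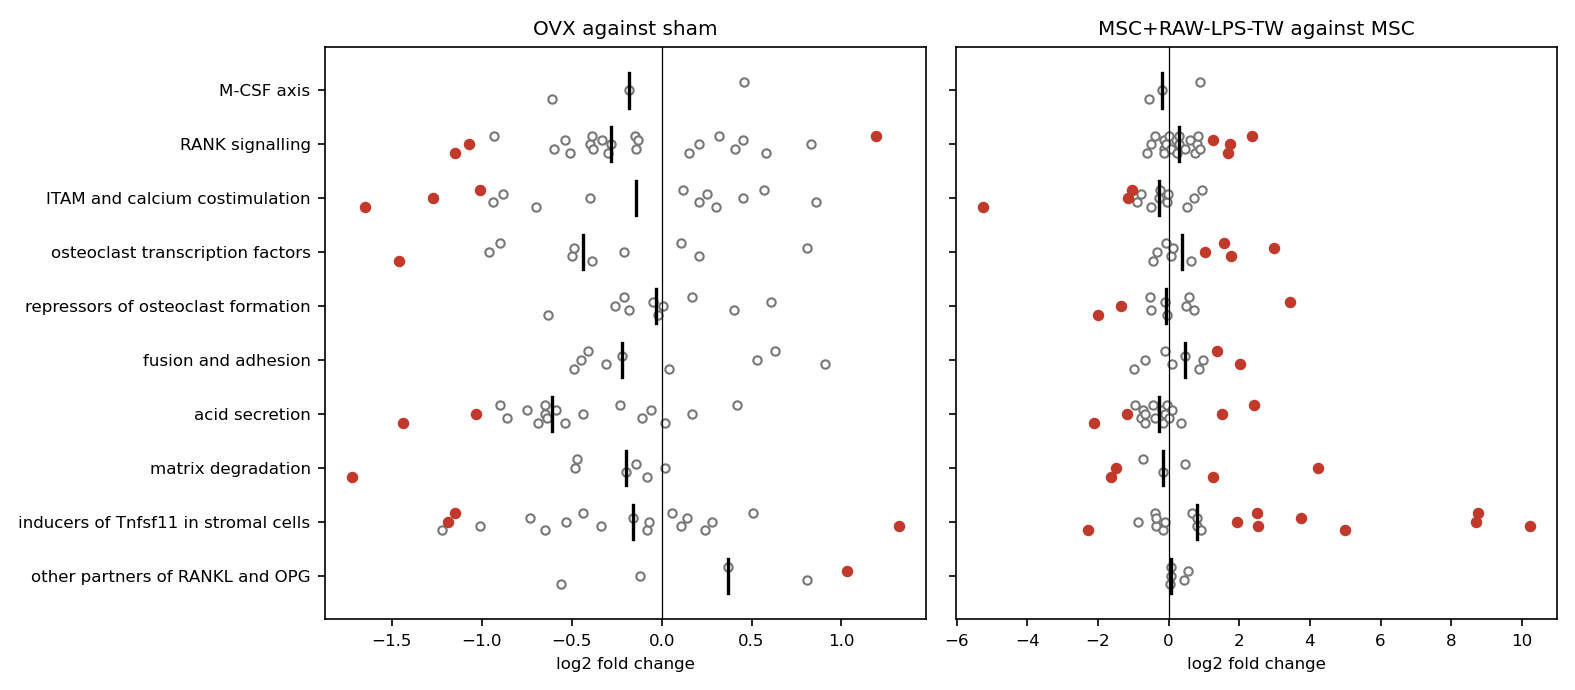
Log2 fold changes (x axes) of the genes of 10 osteoclast pathway lists (y axis) in OVX against sham (left) and in MSC+RAW-LPS-TW against MSC (right), from edgeR. Each point is a gene, filled red where called and open grey where not, and black bars are list medians. In OVX 11 of the 14 genes called were lower, and in MSC+RAW-LPS-TW 23 of the 33 called were higher, with Il1a, Il6 and Il1b at the far right.

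In the libraries labelled as MSCs, the members with the largest changes were Tnfsf11 and Acp5, which rose in MSC+RAW-LPS-TW against MSC, and Atp6v0d2, which fell. Again 9 of the 10 members passed the filter, 2 were called higher and 1 lower, where 10.9% of all 20499 genes tested were called, 5.85% as higher and 5.09% as lower. The values of 6 members did not overlap between these groups, as was so for 57.7% of all genes tested. All 3 calls were made under each alternative tried. Markers of several cell types also moved. The sum of the 10 macrophage markers was between 31220 and 31680 CPM in MSC+RAW-TW and between 13900 and 14190 CPM in MSC+RAW-LPS-TW, of which in the latter Lyz2 held 9149 to 10010 CPM. Lyz2 (log2 fold change -1.18), Cd68 (-2.82) and Mrc1 (-7.20) fell, Adgre1 rose (1.42), and the other 6 were not called. The sum of the 12 stromal markers was between 4079 and 4144 CPM, and 1 of them rose, Nt5e (2.87). The sum of 7 neutrophil markers went from between 11.7 and 16.39 CPM in MSC to between 369.7 and 556.6 CPM in MSC+RAW-LPS-TW. Of the 3 neutrophil markers tested, S100a8 (5) and Camp (5.81) rose, while S100a9, Ly6g and Mpo were at 0 in MSC and Elane was at 0 in MSC+RAW-LPS-TW. The part of these markers in the results on MSCs was not tested.

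Tnfsf11 was measured at 0.429 and 1.61 CPM in MSC, from 21 and 55 counts, and at 1.39 and 1.5 CPM in MSC+RAW-TW. In MSC+RAW-LPS-TW it was measured at 14.8 and 17.8 CPM, from 492 and 558 counts. MSC and MSC+RAW-TW overlapped, and the MSC+RAW-LPS-TW libraries stood above every other MSC library. Against MSC, with means of 16.3 ± 2.14 CPM (SD, n = 2) and 1.02 ± 0.838 CPM (SD, n = 2), the log2 fold change was 4.05 (SE 0.42), a fold of 16.6, with an adjusted p of 3.11e-06 in edgeR. It was 5.24 without MSC replicate 2 and 3.33 without MSC replicate 1, the highest and lowest values over the alternatives. Against MSC+RAW-TW, which counts as 1 sample and allows no test, the value was 3.47. The 7 T cell markers summed to between 1.77 and 3.25 CPM in MSC+RAW-LPS-TW and to between 3.08 and 5.29 CPM in MSC, and Cd3e, their defining gene, held 1 count in each MSC+RAW-LPS-TW library and 0 in the other MSC libraries.

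Il1b and Tnf were far higher in the same libraries. Il1b averaged 17.4 ± 2.22 CPM in MSC and 7278 ± 1252 CPM in MSC+RAW-LPS-TW (SD, n = 2 each), with a log2 fold change of 8.71 (SE 0.23) and an adjusted p of 1.66e-12 in edgeR. Tnf went from 67.9 ± 3.81 CPM to 382 ± 48.1 CPM (SD, n = 2 each), with a log2 fold change of 2.49 (SE 0.16) and an adjusted p of 1.56e-08. In MSC+RAW-TW, Il1b averaged 22.0 CPM and Tnf 182 CPM.

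Tnfrsf11b was measured at 11.6 and 17.6 CPM in MSC, at 8.09 and 5.81 CPM in MSC+RAW-TW, and at 21.4 and 18.1 CPM in MSC+RAW-LPS-TW. The MSC+RAW-TW libraries were the lowest. The sum of the 8 osteoblast markers stood in the same order, between 1319 and 1481 CPM in MSC, 713.7 and 734.7 CPM in MSC+RAW-TW, and 2425 and 2909 CPM in MSC+RAW-LPS-TW. Nearly all of it was again Spp1, and of 7 osteoblast markers tested between MSC+RAW-LPS-TW and MSC none rose and 1 fell, Ibsp (log2 fold change -2.48). The part of these markers in the Tnfrsf11b levels was not tested. Against MSC, the log2 fold change of Tnfrsf11b in MSC+RAW-LPS-TW was 0.44 (SE 0.22), which did not pass, with an adjusted p of 0.193 in edgeR. It was 0.17 without MSC replicate 1, 0.77 without MSC replicate 2 and 0.29 without MSC+RAW-LPS-TW library 1, and passed in none of these. Without a test, it was 1.46 for MSC+RAW-LPS-TW over MSC+RAW-TW, and MSC+RAW-TW stood at -1.02 to MSC. The log2 ratio of Tnfsf11 to Tnfrsf11b was -4.43 and -3.11 in MSC, -2.2 and -1.62 in MSC+RAW-TW, and -0.2 and 0.31 in MSC+RAW-LPS-TW. The 3 groups did not overlap, and only in MSC+RAW-LPS-TW library 2 did the ligand transcript exceed the decoy per kilobase. The difference of MSC+RAW-LPS-TW from MSC was 3.82, and the two-sided exact permutation test gave p = 0.333, the smallest p that 2 against 2 samples allow.

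**Figure D4:**
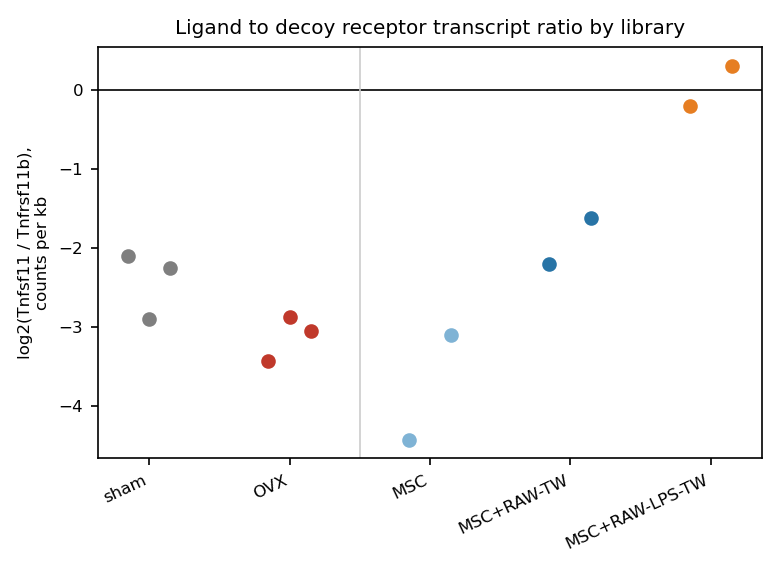
Log2 ratio of Tnfsf11 to Tnfrsf11b counts per kilobase of exon (y axis) in each library (points) by group (x axis), with a line at 0 where both are equal. OVX libraries lay between -3.43 and -2.87, sham libraries between -2.9 and -2.1, and MSC+RAW-LPS-TW libraries, at -0.2 and 0.31, above the other MSC libraries.

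Tnfrsf11a and Nfatc1 did not follow the ligand. Tnfrsf11a was measured at 60.4 and 69.5 CPM in MSC, at 38.2 and 40.9 CPM in MSC+RAW-TW, and at 60.0 and 54.0 CPM in MSC+RAW-LPS-TW. MSC+RAW-LPS-TW lay just below MSC, with a log2 fold change of -0.19 (SE 0.16) and an adjusted p of 0.458 in edgeR. Nfatc1 was measured at 39.7 and 36.4 CPM in MSC, at 43.2 and 42.2 CPM in MSC+RAW-TW, and at 34.9 and 42.3 CPM in MSC+RAW-LPS-TW. The groups MSC and MSC+RAW-LPS-TW overlapped, and the log2 fold change was 0.02 (SE 0.16), with an adjusted p of 0.966 in edgeR.

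Acp5 was measured at 23.2 and 22.8 CPM in MSC, at 57.5 and 56.8 CPM in MSC+RAW-TW, and at 96.8 and 123 CPM in MSC+RAW-LPS-TW. The 3 groups did not overlap and stood in that order. Against MSC, it rose in MSC+RAW-LPS-TW with a log2 fold change of 2.25 (SE 0.17) and an adjusted p of 7.28e-08 in edgeR. Without a test, the log2 fold change was 1.34 for MSC+RAW-TW against MSC and 0.91 for MSC+RAW-LPS-TW over MSC+RAW-TW.

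Atp6v0d2 was measured at 17.2 and 17.3 CPM in MSC, at 11.03 and 12.7 CPM in MSC+RAW-TW, and at 3.06 and 3.0 CPM in MSC+RAW-LPS-TW. The groups did not overlap, in the opposite order to Acp5. The difference of MSC+RAW-TW from MSC, -0.52 on the log2 scale, had no test, and its sign turned with the GC content and length trends removed. Against MSC, it fell in MSC+RAW-LPS-TW with a log2 fold change of -2.51 (SE 0.22), a fold of 5.7, and an adjusted p of 5.89e-07 in edgeR. Relative to MSC+RAW-TW, with no test, the difference was -1.99 on the log2 scale. Ctsk was measured at 29.2 and 32.2 CPM in MSC, at 33.1 and 34.6 CPM in MSC+RAW-TW, and at 26.6 and 25.5 CPM in MSC+RAW-LPS-TW. Its values were lowest in MSC+RAW-LPS-TW, without overlap, and the log2 fold change of -0.24 (SE 0.16) against MSC had an adjusted p of 0.353 in edgeR.

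The fusion genes and Calcr were near the detection limit in MSCs. Dcstamp held 22 and 2 counts in MSC, 28 and 10 in MSC+RAW-TW, and 4 and 8 in MSC+RAW-LPS-TW. Ocstamp held 7 and 3 counts in MSC, 12 and 2 in MSC+RAW-TW, and 0 and 10 in MSC+RAW-LPS-TW. Both overlapped between MSC and MSC+RAW-LPS-TW, with adjusted p of 0.854 and 0.908 in edgeR, and no difference was detectable at this depth. Calcr held 4 counts in MSC+RAW-LPS-TW library 1 and 0 in the other 5 MSC libraries. If counts were independent, a count of 0 would allow up to 3 counts, which is between 0.0612 and 0.0957 CPM in those libraries. Between 64.9% and 71.4% of their low counts were even, so the true floor may be higher. This floor covers counting error at most, as the reads carry no molecular identifiers.

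Over the MSC groups without a test, 4 members passed a fold of 2 between MSC+RAW-LPS-TW and MSC+RAW-TW, where 47.6% of all genes did. Tnfsf11 and Tnfrsf11b were higher in MSC+RAW-LPS-TW, as were 28.2% of all genes, and Atp6v0d2 and the low-count Dcstamp were lower, as were 19.4%. With the GC content and length trends removed, Tnfrsf11b stood at a log2 fold change of 0.89 and Acp5 at 1.39. Without MSC+RAW-TW library 1 Dcstamp stood at -0.62, and without MSC+RAW-LPS-TW library 1 it stood at -0.99 and Acp5 at 1.08. Of the 9 members, 8 did not overlap between these groups, as did 84.9% of all genes. In MSC+RAW-TW against MSC, 2 members passed, where 37.7% of all genes did. Acp5 was higher, as were 13.7% of all genes, and Tnfrsf11b was lower, as were 24.0%. With those trends removed Acp5 stood at 0.88 and Tnfrsf11b at -0.47, and Tnfrsf11b stood at -0.70 without MSC replicate 2 and at -0.85 without MSC+RAW-TW library 2. Again 8 members did not overlap, as did 85.9% of all genes. The comparisons of MSCs share libraries, so their values are not independent of each other.

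Compared between genes on a per-length scale, as TPM, a count per kilobase of exon scaled to a common total, Acp5 and Ctsk led the members in both experiments. In sham BMMs, Acp5 stood at 361 ± 107 TPM and Ctsk at 157 ± 22.0 TPM (SD, n = 2), and the next was Tnfrsf11a at 15.1 ± 1.14 TPM. In OVX, Acp5 stood at 200 ± 6.94 TPM and Ctsk at 148 ± 2.51 TPM (SD, n = 3), and Tnfrsf11b followed at 31.98 ± 6.13 TPM, against 6.19 ± 1.89 TPM in sham, where it stood below Atp6v0d2 at 9.72 ± 0.982 TPM. In MSC, Ctsk stood at 53.8 ± 7.78 TPM, and Acp5 at 29.9 ± 1.94 TPM did not differ from Tnfrsf11a at 28.8 ± 5.03 TPM beyond their SD (n = 2). In MSC+RAW-LPS-TW, Acp5 stood at 109 ± 22.6 TPM and Ctsk at 34.6 ± 0.411 TPM, and Tnfsf11 at 14.7 ± 2.54 TPM did not differ from Tnfrsf11b at 14.1 ± 1.08 TPM beyond their SD (n = 2). In MSC, Tnfsf11 stood at 1.24 ± 1.08 TPM, below Nfatc1 at 13.4 ± 0.199 TPM.

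Of the 119 pathway genes, 117 were tested in MSC+RAW-LPS-TW against MSC, 23 were called higher and 10 lower, together 28.2% against 10.9% of all genes. Of 19 inducers of Tnfsf11 and their receptors, 8 rose and 1 fell, with a median log2 fold change of 0.81. Il1a (log2 fold change 10.22, SE 0.25) and Il6 (8.76, SE 0.24), the genes of interleukin-1α and interleukin-6, had the largest rises beside Il1b, each with an adjusted p of at most 1.66e-12 in edgeR. Il1a went from 0.934 ± 0.0354 CPM in MSC to 1127 ± 210 CPM in MSC+RAW-LPS-TW, and Il6 from 0.456 ± 0.106 to 204 ± 17 CPM (SD, n = 2 each). The receptor gene Lifr was the 1 that fell (-2.29).

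In RANK signalling, 4 of 23 genes rose, Map2k6 (log2 fold change 2.36), a kinase of the p38 branch, and the NF-κB genes Nfkb2 (1.73), Nfkb1 (1.68) and Relb (1.25). Of 10 osteoclast transcription factor genes, 4 rose, Prdm1 (2.97), which encodes Blimp-1, and the AP-1 genes Fosl1 (1.77), Junb (1.56) and Fosl2 (1.03). Of 10 repressors, Tnfaip3, the NF-κB inhibitor A20, rose from 23.6 ± 1.7 to 256 ± 26.3 CPM (SD, n = 2 each; log2 fold change 3.44, adjusted p 6.75e-10 in edgeR), and Id1 (-1.34) fell. In ITAM costimulation, 3 of 13 fell. Trem2, a receptor on osteoclast precursors and macrophages, fell the most, from 454 ± 3.05 to 11.9 ± 4.14 CPM (SD, n = 2 each; log2 fold change -5.25, adjusted p 1.83e-10 in edgeR), and the kinase genes Btk (-1.15) and Tec (-1.04) fell less. The call on Tec was lost without MSC+RAW-LPS-TW library 1 (-0.90) and with the GC content and length trends removed (-0.99), and that on Fosl2 without MSC+RAW-LPS-TW library 2 (0.94).

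Of 9 fusion and adhesion genes tested, 2 rose, the protease gene Adam12 (log2 fold change 2.03) and Itgb3 (1.36), the β3 subunit of the vitronectin receptor on which osteoclasts attach. Of 18 acid secretion genes, the proton pump genes Atp6v0a1 (-2.11) and Atp6v1b2 (-1.19) fell, as Atp6v0d2 did, while Snx10 (1.51), a vesicle sorting gene, and the low-level carbonic anhydrase gene Car2 (2.41) rose. Of 7 matrix degradation genes, Mmp9 rose from 37.9 ± 4.08 to 719 ± 27.9 CPM (SD, n = 2 each; log2 fold change 4.24, adjusted p 9.42e-11 in edgeR), and the membrane-bound Mmp14 rose as well (1.27). The lysosomal protease genes Ctsb (-1.62) and Ctsd (-1.48) fell. None of the 3 genes of the M-CSF axis or the 5 other partners was called. Lifr, Relb, Fosl2, Car2 and Mmp14 were named after their values were seen.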

How the data were processed

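RNA-seq of poly(A) RNA from 6 BMM and 6 MSC libraries was analyzed. Per the submitters' processing notes and the methods, the authors trimmed reads with Trim Galore 0.6.7, mapped them to GRCm38 with HISAT2 2.1.0 and counted them with featureCounts 2.0.1. The deposited values are raw counts per Ensembl gene, not normalized or filtered, 1 column per library. The strand setting is not given in the sources used here. Among low counts, between 60.0% and 71.4% were even, so counts do not behave as single molecules. Names were matched for 55141 of 55487 identifiers with an annotation of GRCm38.

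The members, gene lists and tests were chosen with earlier results of these data known. From the counts, edgeR 4.0.16 (R 4.3.3) was run with TMM normalization, filterByExpr and the two-sided quasi-likelihood F-test, for each experiment apart, and all MSC groups shared 1 estimate of spread. Summing the near-identical pairs followed a check on the files. Pairs of libraries were compared over genes with at least 20 counts. Log2 fold changes and SE come from these fits, CPM used the TMM factors, and TPM used counts and exon lengths. Named were all members, Il1b and Tnf, and from each list the 3 called genes of largest change with a mean of at least 1 CPM, except 1 gene that is not reported here. Alternatives were RLE, DESeq2 1.42.0, no filter, a mean CPM of at least 1, all libraries kept, the replicate number as a block, no fold limit, only the 2 groups compared, and each library left out. Removing each library's lowess trends with GC content and with length (span 0.3), and the series of identifiers in the column names as a block, were chosen after seeing the data. On simulated data with 200 genes changed 4-fold, edgeR made 180 true and 18 false calls in the OVX design, over 16225 genes. In the design of MSC+RAW-LPS-TW against MSC it made 187 true and 5 false calls, over 19229 genes. The simulated counts held no GC content or length trends, so they do not measure false calls from such trends.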

Additional observations from a re-analysis of the deposited data

How the results depend on the processing

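Leaving out 1 library gave between 1 and 4 members called in OVX against sham, with 1, Tnfrsf11b, without OVX replicate 2. Pathway genes called there ran from 5 to 21, and all genes from 309 (1.9%) without OVX replicate 2 to 2390 (13.5%) without sham replicate 1, against 1419. With no fold limit, 6 members and 24 pathway genes were called in OVX against sham, where 13.1% of all genes were, and 69 pathway genes in MSC+RAW-LPS-TW against MSC, where 20.9% were. With the GC content and length trends removed, 6 pathway genes were called in OVX against sham, where 3.52% of all genes were, and 1 member passed a fold of 2 in MSC+RAW-TW against MSC, where 33.3% of all genes did. Leaving out a library gave 2 to 4 there, and 37.2% to 38.5% of all genes. GC content was also correlated with each gene's log2 CPM as a deviation from its mean over the BMM samples. Spearman's rho was -0.561, -0.321 and -0.209 in OVX and 0.308 and 0.523 in the 2 sham samples. These values compare samples with each other and do not describe absolute levels.

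Whether replicate numbers pair the BMM libraries was not settled. The deviations of same-numbered libraries correlated at 0.47, -0.04 and 0.45, and those of differently numbered libraries at -0.56 to 0.41. The 0.41 was between OVX replicate 3 and sham replicate 2, which is near-identical to sham replicate 3. The replicate block was fitted with all libraries kept. All genes called were then 1391 higher and 726 lower (13.4%), members called were 4 and pathway genes 13, and Tnfsf11 had an adjusted p of 0.0156. With all libraries kept and no block, the values were 1178 higher and 640 lower (11.5%), 4 members, 14 pathway genes and an adjusted p of 0.0334. In the MSC experiment no replicate number could serve as a block, since the MSC+RAW-TW and MSC+RAW-LPS-TW columns carry none that match the labels. With the library identifier series read from the column names as a block and all libraries kept, chosen after seeing the data, 3 members and 33 pathway genes were called in MSC+RAW-LPS-TW against MSC, where 12.7% of all genes were, and Tnfsf11 had a log2 fold change of 4.14 and an adjusted p of 6.58e-07 in edgeR. In MSC+RAW-LPS-TW against MSC, the sign turned for Nfatc1, -0.04 without MSC replicate 2 and -0.12 without MSC+RAW-LPS-TW library 2 (range -0.12 to 0.12), and for the low-count Dcstamp, 1.62 without MSC replicate 1 (range -1.25 to 1.62). The cause of these changes was not tested. In the comparisons with no test, signs also changed. In MSC+RAW-TW against MSC, Tnfsf11 went from 0.59 to -0.14 without MSC replicate 1 (range -0.14 to 1.77), and the low-count Ocstamp from 0.68 to -0.97 without MSC+RAW-TW library 1. With the trends removed, Nfatc1 went there from 0.19 to -0.02 and Atp6v0d2 from -0.52 to 0.12. Between MSC+RAW-LPS-TW and MSC+RAW-TW, Ocstamp went from -0.25 to 0.76 without MSC+RAW-LPS-TW library 1, 1.40 without MSC+RAW-TW library 1 and 0.05 with the trends removed, and Nfatc1 from -0.18 to 0.05 with the trends removed. Among single genes with a test, 45 recomputed values lost a call and 8 gained one. Where a library is left out of a group of 2, the lone sample is assumed to vary like the other groups.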
